A study of Mus musculus with 36 samples.

Results

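The kidneys compared here came from mice on normal chow at lights off, Zeitgeber time (ZT) 12, and at lights on, ZT0. ZT counts hours from lights on. The comparison takes 6 of the 36 RNA libraries of the series, 3 per time, chosen by the diet and time in the sample labels, and it covers all genes. The mice were male, wild-type C57BL/6J animals with free access to food under 12 h of light and 12 h of darkness; the diets began at 6 weeks of age and the harvest label reads 16 weeks. The study, by its title, asks how a high-fat diet reprograms daily cycles of the kidney, and it took kidneys at 6 times of day, 3 per diet and time. The other 4 normal chow times entered the fit as estimates of the spread between libraries. High-fat mice of the same strain, sex, age and times are set beside the results, with 3 libraries at ZT0 and 3 at ZT12. ZT3 appears in the name of the diet label although no kidney was taken then, and times used here are those of the titles. Each library carries the replicate number of its title: 1, 4 and 5 at ZT0, and 2, 3 and 5 at ZT12, and per-library values below follow that order.

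Mammalian cells keep time with a feedback loop of transcription. BMAL1, encoded by Arntl, pairs with CLOCK or NPAS2, binds the E-box and switches on the Per and Cry genes, whose proteins return to block it. The same pair drives the nuclear receptors Nr1d1 and Nr1d2, which repress Arntl and Npas2, and the activators Dbp, Tef and Hlf, which act at D-boxes. In the kidney this loop times filtration, salt and water transport and metabolism.

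Values are FPKM, fragment counts divided by transcript length and library size, and differences are ZT12 minus ZT0 on the scale of log2(FPKM + 0.5), which understates the change of low genes. Sampled tissue was kidney by its markers: Kap, an androgen-induced protein of the proximal tubule, was the most abundant transcript in each of the 6 libraries (45808 to 74234 FPKM), and the phosphate transporter Slc34a1 lay between 2097 and 2751 FPKM. Library read totals were not used here. Relative depth, read from the steps between low values, ranged from 0.747 to 1.35 across the 6 libraries.

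Adrenal tissue was present in 1 of the 6 libraries. Cyp21a1, the steroid 21-hydroxylase of the adrenal cortex, stood at 1346 FPKM in ZT0 replicate 5, at 0 in ZT0 replicates 1 and 4, and at 0.0953, 0 and 0.0647 FPKM at ZT12. It also stood at 262 and 163 FPKM in normal chow ZT4 replicates 2 and 3 and at 20.2 FPKM in ZT16 replicate 4, and at most at 0.255 FPKM in the remaining libraries of the series. The 14 adrenal cortex markers summed to 4304 FPKM in ZT0 replicate 5 and to 64.8 to 92.5 FPKM in the other 5, and the 10 medulla markers to 919 against 71.6 to 100.2 FPKM. Cyp11b1, Th, Dbh, Pnmt and Chga were at 0 in the other 5 libraries. The total counts are therefore given with and without ZT0 replicate 5. Liver transcripts were highest in ZT0 replicate 1, where Alb was 39.6 FPKM against 2.98 to 3.67 FPKM elsewhere. The 15 adipocyte markers summed to 1431, 246 and 2536 FPKM at ZT0 and to 1034, 893 and 2022 FPKM at ZT12, so both times spanned a wide range of fat, and 0 of 13 tested fat markers changed.

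Between lights on and lights off 358 of 11174 genes tested changed (limma, Benjamini-Hochberg adjusted p under 0.05), or 3.2% of them. At ZT12, 81 genes were higher (0.725%) and 277 lower (2.48%). Changes were modest, with a median of 0.67 log2 or 1.59-fold, and 18 of the higher and 51 of the lower genes changed at least 2-fold. The groups of 3 did not overlap for any of the 358, and they did not overlap for 25.9% of all genes tested. The largest rises belonged to the clock, to its output regulators and to Usp2, and the largest falls to the gene model Gm10052, Arntl, Fabp1, Npas2, Nfil3 and Ppard. The plot of all genes shows these at either end. Adrenal transcripts such as Cyp21a1 appear in it as large grey differences that did not pass (Cyp21a1, -3.66 log2, adjusted p = 0.468). Gm10052, a processed pseudogene, varied widely: 36.1, 13.4 and 8.80 FPKM at ZT0 and 6.28, 4.76e-14 and 0.0517 FPKM at ZT12 (limma adjusted p = 0.0441). With 1 library left out, it stayed called only without ZT12 replicate 2.

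The share of lower genes depended on the scaling. The median difference of all genes was -0.12 log2 on the deposited scale and -0.02 after the libraries were rescaled by their median ratio, and differences below should be read against it. With that rescaling 258 genes passed (2.31%), 137 higher (1.23%) and 121 lower (1.08%), so lower genes made up 46.9% of calls and not 77.4%. All 81 higher genes and 121 of the 277 lower genes were called under both scalings. Without ZT0 replicate 5 there were 224 calls (2.0%), 50 higher (0.447%) and 174 lower (1.56%), of which 193 were among the 358. Leaving out ZT0 replicate 1 gave 183 calls, ZT0 replicate 4 gave 184, ZT12 replicate 3 gave 164 and ZT12 replicate 5 gave 115. The 98 genes called without each of the 6 libraries in turn were 23 higher and 75 lower ones. All 358 kept their sign, which was fixed in advance because the groups of 3 did not overlap for any of them. Of the 82 called genes that the naming rule takes, 40 stayed called without each of the 6 libraries in turn. With the 6 libraries alone in the fit 61 genes passed, 18 higher and 43 lower.

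**Figure D1:**
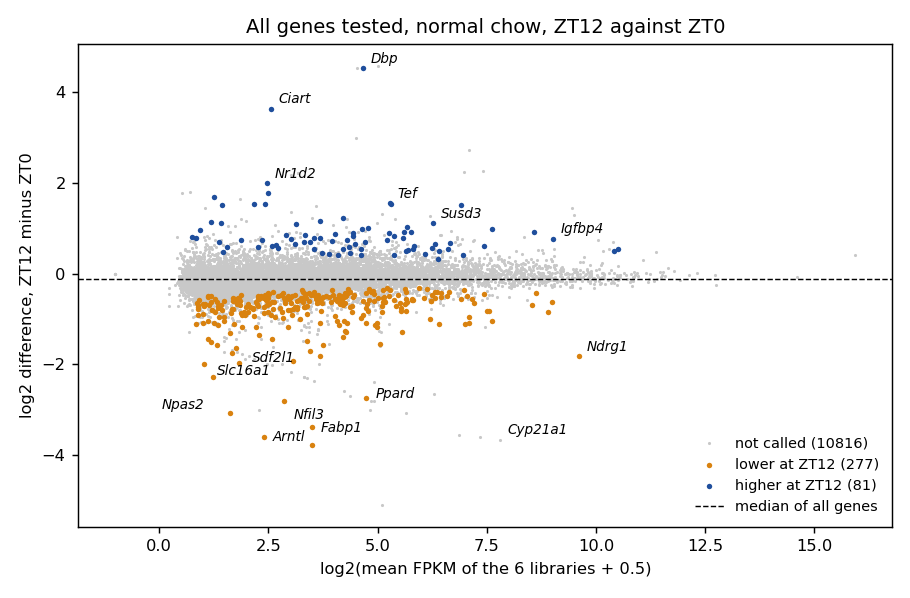
Difference between ZT12 and ZT0 (log2, vertical) against the mean level of the 6 normal chow libraries, with 1 point per gene tested. The 277 lower genes (orange) and 81 higher genes (blue) lie on either side of the dashed median of all genes, and Dbp, Ciart, Arntl and Npas2 stand at the ends.

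Of the 14 core clock genes measured, 5 rose by ZT12 (Per1, Per3, Cry2, Nr1d2 and Ciart) and 2 fell (Arntl and Npas2), against 3.2% of all genes called. The remaining 7, Clock, Cry1, Rora, Bhlhe40, Nr1d1 and Per2 among them, did not pass. Without ZT0 replicate 4, ZT12 replicate 3 or ZT12 replicate 5 the rises that passed numbered 3, and the 2 falls passed without any 1 library. E-boxes and D-boxes are sequences through which the loop acts. The windows below come from called clock and output genes for which the search returned an E-box or D-box. For Arntl, Npas2 and Dbp, which moved as much or more, it returned none. These windows are RefSeq sequence on GRCm38.p6 from the 250 bases before an annotated start of the gene, not always its first. They lie outside annotated exons and are printed 5′ to 3′ on the strand of the gene. Capitals mark the motif found. Ciart lies on the minus strand with its E-box (CACGTG) in chr3:95882314-95882369, Per1 on the plus strand in chr11:69098758-69098813, and Tef on the plus strand in chr15:81811251-81811306. Per3, on the minus strand, has a pair of D-boxes in chr4:151044791-151044895. The Per1 window precedes an internal start, at 69098949 in a gene that begins at 69095217. The Tef window precedes the start at 81811414, and Tef also had an E-box before a start at 81802673.
Ciart: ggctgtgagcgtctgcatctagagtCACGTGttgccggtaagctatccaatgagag
Per1: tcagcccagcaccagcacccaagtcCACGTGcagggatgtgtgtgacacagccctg
Tef: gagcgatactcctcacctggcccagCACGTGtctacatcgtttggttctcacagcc
Per3: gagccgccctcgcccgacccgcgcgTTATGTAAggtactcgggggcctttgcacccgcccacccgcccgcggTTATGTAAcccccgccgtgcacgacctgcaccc

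The activators of the loop were high at lights on. Arntl, the obligate partner in the activating complex, measured 9.14, 8.91 and 9.79 FPKM at ZT0 and 0.373, 0.430 and 0.144 FPKM at ZT12. Every ZT0 kidney lay far above every ZT12 kidney, a difference of -3.60 ± 0.16 log2 (SE; adjusted p = 3.55e-09). Npas2, which can stand in for CLOCK, measured 5.34, 4.99 and 4.64 FPKM at ZT0 and 0.307, 0.130 and 0.0558 FPKM at ZT12. It fell by 3.06 ± 0.17 on the log2 scale (adjusted p = 3.57e-08). Clock itself, the other partner of BMAL1, measured 1.76, 2.59 and 2.72 FPKM at ZT0 and 1.84, 0.886 and 1.35 FPKM at ZT12. Its groups overlapped and it did not pass (-0.64 log2, adjusted p = 0.249).

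Ciart, Per1, Per3 and Cry2, repressors of the loop, were higher at lights off, whereas Per2 and Cry1 did not pass. Ciart, a repressor of the BMAL1 complex, measured 0.369, 0.218 and 0.579 FPKM at ZT0 and 9.81, 11.2 and 10.2 FPKM at ZT12, a rise of 3.64 ± 0.22 log2 (adjusted p = 7.82e-08). Per3 measured 0.597, 0.451 and 0.884 FPKM at ZT0 and 2.75, 3.18 and 3.59 FPKM at ZT12 (1.69 ± 0.22 log2, adjusted p = 0.000403). The 3 ZT12 kidneys lay close together for both genes. Per1, which also responds to glucocorticoids, was more spread: 1.60, 1.33 and 2.99 FPKM at ZT0 and 4.14, 12.0 and 9.01 FPKM at ZT12 (1.79 ± 0.35 log2, adjusted p = 0.0109). Its call was lost without ZT0 replicate 4, ZT12 replicate 3 or ZT12 replicate 5 (highest adjusted p = 0.0622). Per2 measured 1.53, 0.782 and 2.78 FPKM at ZT0 and 2.06, 4.90 and 4.93 FPKM at ZT12. Its groups overlapped because ZT12 replicate 2 lay below ZT0 replicate 5, and it did not pass (1.04 ± 0.35 log2, adjusted p = 0.124). Cry2 rose by 0.74 ± 0.17 log2 (adjusted p = 0.0272), a call lost when any 1 of ZT0 replicates 1 and 4 and ZT12 replicates 3 and 5 was left out. Cry1 was 2.21, 2.12 and 2.90 FPKM at ZT0 and 0.406, 1.71 and 1.76 FPKM at ZT12 (-0.81 log2, adjusted p = 0.240).

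The nuclear receptors of the loop fell into called and uncalled members. Nr1d2, a repressor of Arntl, measured 1.61, 2.22 and 1.36 FPKM at ZT0 and 10.2, 6.97 and 8.03 FPKM at ZT12 (2.00 ± 0.34 log2, adjusted p = 0.00553). Its close relative Nr1d1 measured 11.1, 18.6 and 8.05 FPKM at ZT0 and 34.6, 23.5 and 18.5 FPKM at ZT12. ZT0 replicate 4 and ZT12 replicate 5 met at the boundary of the groups, and Nr1d1 did not pass (1.03 ± 0.33 log2, adjusted p = 0.103). Its highest means lay between the compared times, at 34.8 FPKM at ZT4 and 33.6 FPKM at ZT8. A comparison of times 12 h apart can miss a gene that peaks between them.

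**Figure D2:**
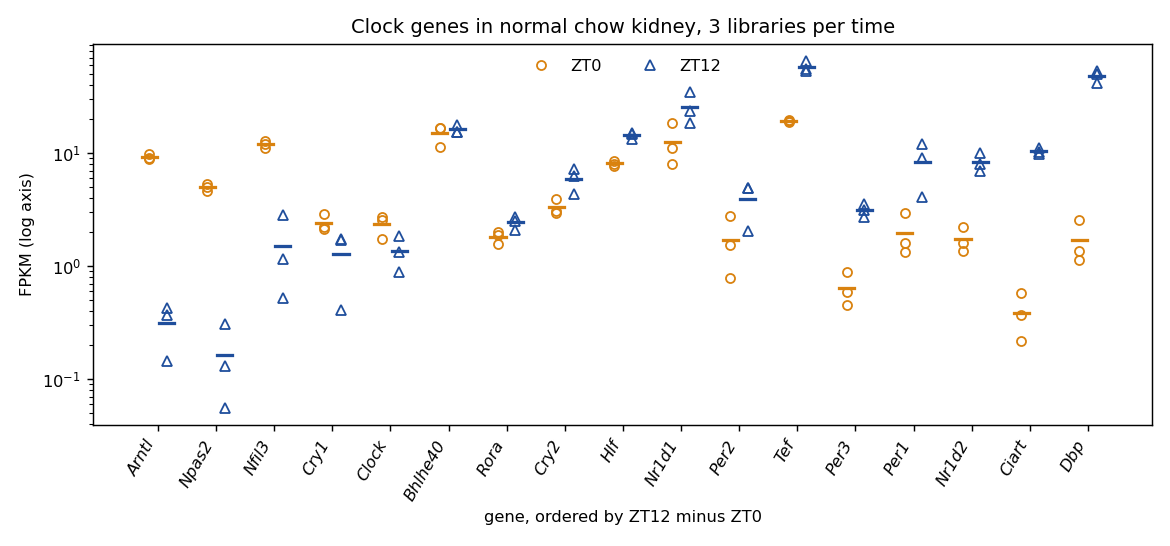
FPKM of 13 core clock genes and of Dbp, Tef, Hlf and Nfil3 on a log axis, with 1 open symbol per normal chow library and bars at group means (circles, ZT0; triangles, ZT12; 3 each). Arntl and Npas2 lie lower at ZT12 and Ciart and Dbp higher in all libraries, and the symbols of Clock and Per2 overlap between times.

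Of 14 clock output genes tested, 8 rose (Dbp, Tef, Hlf, Usp2, Wee1, Tsku, Por and Lpin1) and 3 fell (Nfil3, Ppard and Leo1). Of all genes 0.725% were higher and 2.48% lower. The list was drawn up with earlier results of these data known, so its counts are a description only. Without ZT0 replicate 4 only 4 of the rises passed, and without ZT12 replicates 3 or 5 only 5 and 3 did, whereas the 3 falls passed without any 1 library. Dbp measured 1.14, 1.37 and 2.57 FPKM at ZT0 and 50.3, 53.1 and 42.3 FPKM at ZT12, a 28.7-fold ratio of means (4.53 ± 0.23 log2, adjusted p = 1.14e-08). Tef, whose E-box is printed above, measured 19.3, 19.8 and 19.0 FPKM at ZT0 and 53.2, 65.2 and 56.0 FPKM at ZT12 (1.56 ± 0.16 log2, adjusted p = 4.11e-05). In both genes the lowest ZT12 kidney exceeded the highest ZT0 kidney at least 2-fold. Hlf, the third activator of the family, rose by 0.78 ± 0.16 log2, from 7.77 to 8.61 FPKM at ZT0 to 13.4 to 14.98 FPKM at ZT12 (adjusted p = 0.0145). Its call was lost without ZT0 replicate 4 or ZT12 replicate 5 (highest adjusted p = 0.0693).

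Nfil3 opposes these activators at the same D-box and ran against them. It measured 12.9, 11.2 and 12.0 FPKM at ZT0 and 0.527, 2.86 and 1.15 FPKM at ZT12, a fall of 2.81 ± 0.47 on the log2 scale (adjusted p = 0.00396). The deubiquitinase Usp2 rose from 18.2 to 21.1 FPKM at ZT0 to 42.4, 69.2 and 65.2 FPKM at ZT12 (1.53 ± 0.17 log2, adjusted p = 8.30e-05). Wee1, a kinase that restrains entry into mitosis, rose by 1.12 ± 0.21 log2 (adjusted p = 0.00963), and this call was lost without ZT12 replicate 5. Ppard, a nuclear receptor for fatty acids, measured 51.8, 44.0 and 42.6 FPKM at ZT0 and 4.99, 7.99 and 6.72 FPKM at ZT12. It fell by 2.74 ± 0.22 on the log2 scale (adjusted p = 2.64e-06), with no ZT12 kidney near any ZT0 kidney.

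The other 4 times show where in the day these genes were highest. Of the 277 lower genes 248 had their highest mean at ZT0, 21 at ZT16, 5 at ZT20 and 3 at ZT4. Of the 81 higher genes 34 were highest at ZT12, 30 at ZT8, 15 at ZT16 and 1 each at ZT4 and ZT20. Because these genes were picked on their ZT0 and ZT12 values, that choice favours a highest mean at ZT0 or ZT12. In the libraries of the other 4 times alone, the summed ZT20 and ZT4 level exceeded that of ZT8 and ZT16 for 212 of the 277 lower genes (76.5%), against 45.5% of all genes. It was below it for 74 of the 81 higher genes (91.4%), against 54.5% of all genes. Arntl, for example, fell from 9.28 FPKM at ZT0 through 2.24 at ZT4 to 0.329 at ZT8 and 0.316 at ZT12, then stood at 2.63 at ZT16 and 6.15 at ZT20. Dbp stood at 54.4 FPKM at ZT8 and 48.5 FPKM at ZT12 but at 8.75 FPKM at ZT16.

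**Figure D3:**
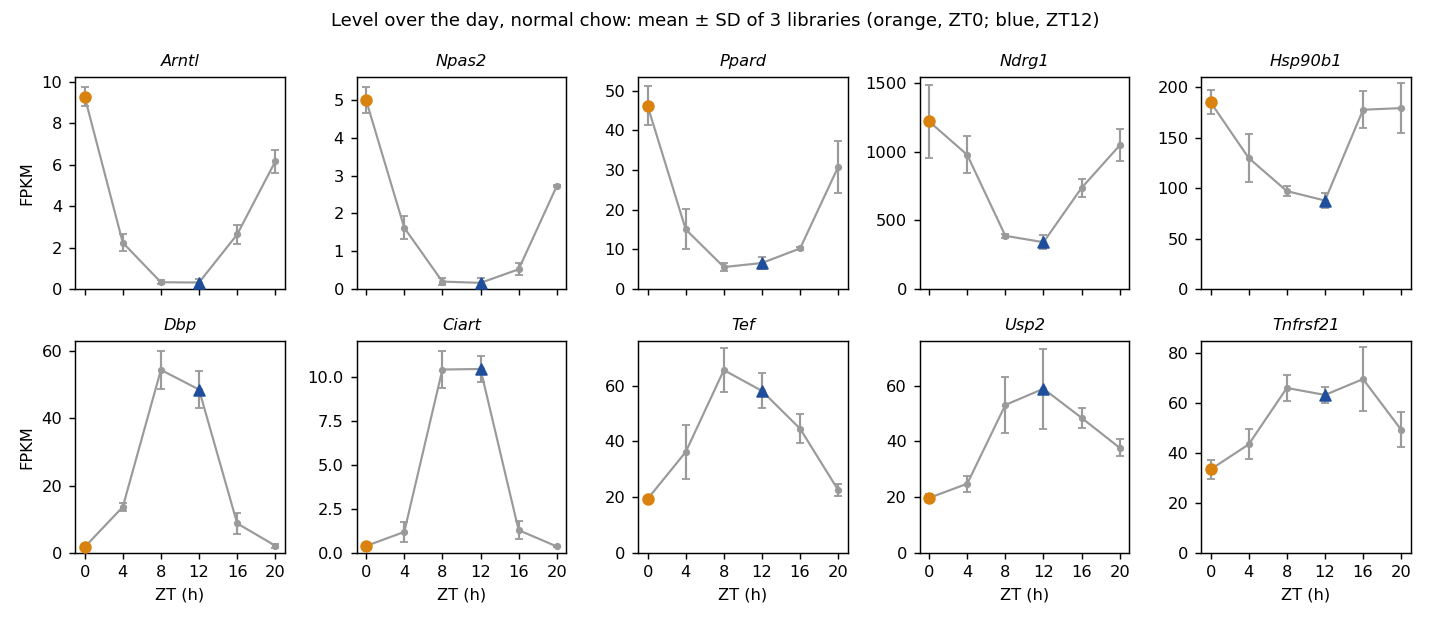
Mean FPKM ± SD (3 normal chow libraries per time) of 10 genes over the 6 times, with ZT0 in orange and ZT12 in blue, each axis from 0. Arntl, Npas2, Ppard and Ndrg1 are lowest at ZT8 and ZT12, and Dbp, Ciart and Tef are highest there.

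Shares of promoters with each motif are given as counts, with no test. A match before any annotated start of a gene counted, so genes with more starts had more chances to match. In the 250 bases before a start, on either strand, CACGTG occurred in 12 of 61 higher genes with a promoter sequence (19.7%), 21 of 204 lower genes (10.3%) and 866 of 8540 genes tested (10.1%). D-boxes (TTATGTAA or TTACGTAA) occurred in 2 of 61, 4 of 204 and 72 of 8540 promoters (0.843%). The ROR element, searched as AANT followed by AGGTCA or GGGTCA, occurred in 1 lower gene, Leo1, and in 27 of 8540 promoters (0.316%). The heat shock element GAANNTTC was in 4 of 61 higher, 10 of 204 lower and 535 of 8540 promoters (6.27%). The E-box share of lower genes and the heat shock element shares lie near those of all genes and are no result about the called genes. A match describes letters in the window and not a bound site. Below are the E-boxes of Rhobtb1, in chr10:69212565-69212620, and Slc16a1, in chr3:104638439-104638494, and the ROR element of Leo1, in chr9:75441433-75441492, all on the plus strand. They are the E-box and ROR element windows found among the 15 largest falls. The heat shock element window of Pnrc1, also among those falls, is not printed. The Rhobtb1 window precedes an internal start, at 69212657 in a gene that begins at 69151434.
Rhobtb1: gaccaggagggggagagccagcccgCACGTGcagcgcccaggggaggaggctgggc
Slc16a1: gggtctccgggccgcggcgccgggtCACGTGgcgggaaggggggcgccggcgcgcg
Leo1: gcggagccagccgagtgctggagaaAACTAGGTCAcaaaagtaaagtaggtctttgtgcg

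All 3 genes lay lower in every ZT12 kidney. Rhobtb1, a protein with a BTB domain, measured 15.2, 15.9 and 13.6 FPKM at ZT0 and 3.96, 5.49 and 5.80 FPKM at ZT12 (-1.48 ± 0.13 log2, adjusted p = 9.73e-06). Slc16a1, the monocarboxylate transporter MCT1 for lactate and pyruvate, measured 11.1, 15.8 and 11.5 FPKM at ZT0 and 3.82, 2.50 and 2.73 FPKM at ZT12 (-1.92 ± 0.22 log2, adjusted p = 0.000148). Leo1, a subunit of the PAF1 transcription elongation complex, fell by 1.44 ± 0.18 on the log2 scale (adjusted p = 0.000403).

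Endoplasmic reticulum (ER) chaperones were lower at lights off. These proteins fold and check secreted and membrane proteins, and the unfolded protein response raises them under load. Of 22 list members tested 12 were lower and 1, Herpud1, was higher at ZT12, where 2.48% of all genes were lower and 0.725% higher, and the median difference was -0.51 log2 against -0.12 for all genes. Hsp90b1, the ER form of HSP90, measured 196, 172 and 186 FPKM at ZT0 and 89.5, 79.5 and 93.9 FPKM at ZT12 (-1.08 ± 0.13 log2, adjusted p = 0.000280). Sdf2l1, a partner of the chaperone BiP, measured 18.8, 18.6 and 21.5 FPKM at ZT0 and 5.66, 4.29 and 5.73 FPKM at ZT12 (-1.82 ± 0.23 log2, adjusted p = 0.000403). In both genes the groups lay well apart. Of the 6 times, the mean of Hsp90b1 was highest at ZT0 and that of Sdf2l1 at ZT16 (22.1 FPKM, against 19.6 FPKM at ZT0). BiP itself, Hspa5, fell by 0.95 ± 0.17 on the log2 scale (adjusted p = 0.00572), and the disulfide isomerase Pdia6 by 0.99 ± 0.13 (adjusted p = 0.000413). Calr, Hyou1, Manf, Pdia3, Pdia4, Dnajb11, Sec61b and Syvn1 were the other lower members. Herpud1, which serves the removal of misfolded ER proteins, went the other way, from 87.1, 70.9 and 73.6 FPKM to 113, 125 and 134 FPKM (0.68 ± 0.11 log2, adjusted p = 0.00247). Xbp1, a transcription factor of the response, did not pass (-0.10 log2, adjusted p = 0.792). The lower members numbered 7 without ZT0 replicate 5 or ZT0 replicate 1, 8 without ZT12 replicate 3 or 5, and 8 after median ratio rescaling.

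Some heat shock genes, whose products fold and hold client proteins, were also lower at lights off. Of 22 tested 7 were lower and 0 higher, against 2.48% of all genes lower. They were Hsp90aa1, Hsp90ab1, Hspa4l, Hspe1, Stip1, Ahsa1 and Fkbp4, most of them HSP90 or its partners. Hsp90aa1 stayed called only without ZT12 replicate 2 and Fkbp4 only without ZT0 replicate 4 (highest adjusted p = 0.0948 and 0.0915). Hsp90ab1, the constitutive cytosolic HSP90, measured 673, 536 and 659 FPKM at ZT0 and 373, 407 and 421 FPKM at ZT12 (-0.63 ± 0.11 log2, adjusted p = 0.00574). Its activator Ahsa1 measured 106, 75.0 and 89.9 FPKM at ZT0 and 53.6, 58.9 and 64.7 FPKM at ZT12 (-0.60 ± 0.11 log2, adjusted p = 0.00786). Neither gene had a ZT12 kidney as high as the lowest ZT0 kidney. The highest mean of the 6 times lay at ZT16 for Hsp90aa1, Hsp90ab1 and Ahsa1 (131, 626 and 96.8 FPKM) and at ZT0 for Fkbp4 (171 FPKM). The ZT0 means of Hsp90aa1, Hsp90ab1 and Ahsa1 were 115, 623 and 90.3 FPKM. The list median was -0.45 log2, or -0.33 after median ratio rescaling, under which 3 members passed. The count was 2 without ZT0 replicate 1, ZT0 replicate 5 or ZT12 replicate 5, 3 without ZT12 replicate 3 and 4 without ZT12 replicate 2.

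Sterol synthesis genes, which SREBP2 switches on when cell cholesterol is low, were lower at ZT12 in 6 of 25 cases, Fdps, Msmo1 and Srebf2 among them, and higher in 0, against 2.48% of all genes lower. The median was -0.49 log2. Srebf2, which encodes SREBP2, measured 16.4, 18.4 and 13.8 FPKM at ZT0 and 8.65, 9.75 and 8.17 FPKM at ZT12 (-0.83 ± 0.12 log2, adjusted p = 0.000948). Msmo1, an enzyme of late cholesterol synthesis, measured 19.1, 36.5 and 24.4 FPKM at ZT0 and 9.74, 8.01 and 10.7 FPKM at ZT12 (-1.40 ± 0.22 log2, adjusted p = 0.00242), with ZT0 replicate 4 the highest. The count was 3 without ZT0 replicate 4 or ZT12 replicate 2, 7 without ZT0 replicate 5 and 4 after median ratio rescaling. Adrenal cortex, which makes steroids from cholesterol, was present in ZT0 replicate 5, and its part in the count was not tested.

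Collagens and other matrix genes had a median of -0.51 log2, and 4 of 21 were lower (Col3a1, Col4a1, Col4a2 and Col5a1), against 2.48% of all genes. Col4a1, a chain of basement membrane collagen, measured 31.2, 39.0 and 33.4 FPKM at ZT0 and 20.8, 17.4 and 19.4 FPKM at ZT12 (-0.83 ± 0.10 log2, adjusted p = 0.000172). Col3a1, a fibrillar collagen, fell by 0.83 ± 0.15 on the log2 scale (adjusted p = 0.00572). Both stayed called without any 1 library. Col4a2 was lost without ZT0 replicate 4 or ZT12 replicate 5, Col5a1 stayed called only without ZT0 replicate 1 (highest adjusted p = 0.0774 and 0.166), and the list count fell to 2 without ZT0 replicate 4 or ZT12 replicate 5 and to 2 after median ratio rescaling. Markers of endothelium, podocytes, macrophages, and smooth muscle and pericytes had medians of -0.40, -0.31, -0.46 and -0.36 log2 beside these collagens. Of their members 1 of 9 (Cdh5), 0 of 8, 0 of 6 and 0 of 6 were called, Cdh5 not without ZT0 replicate 1 or 5 or ZT12 replicate 3 or 5, and their part in the result was not tested. In bulk tissue, fewer cells of a type and less RNA per cell cannot be told apart.

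**Figure D4:**
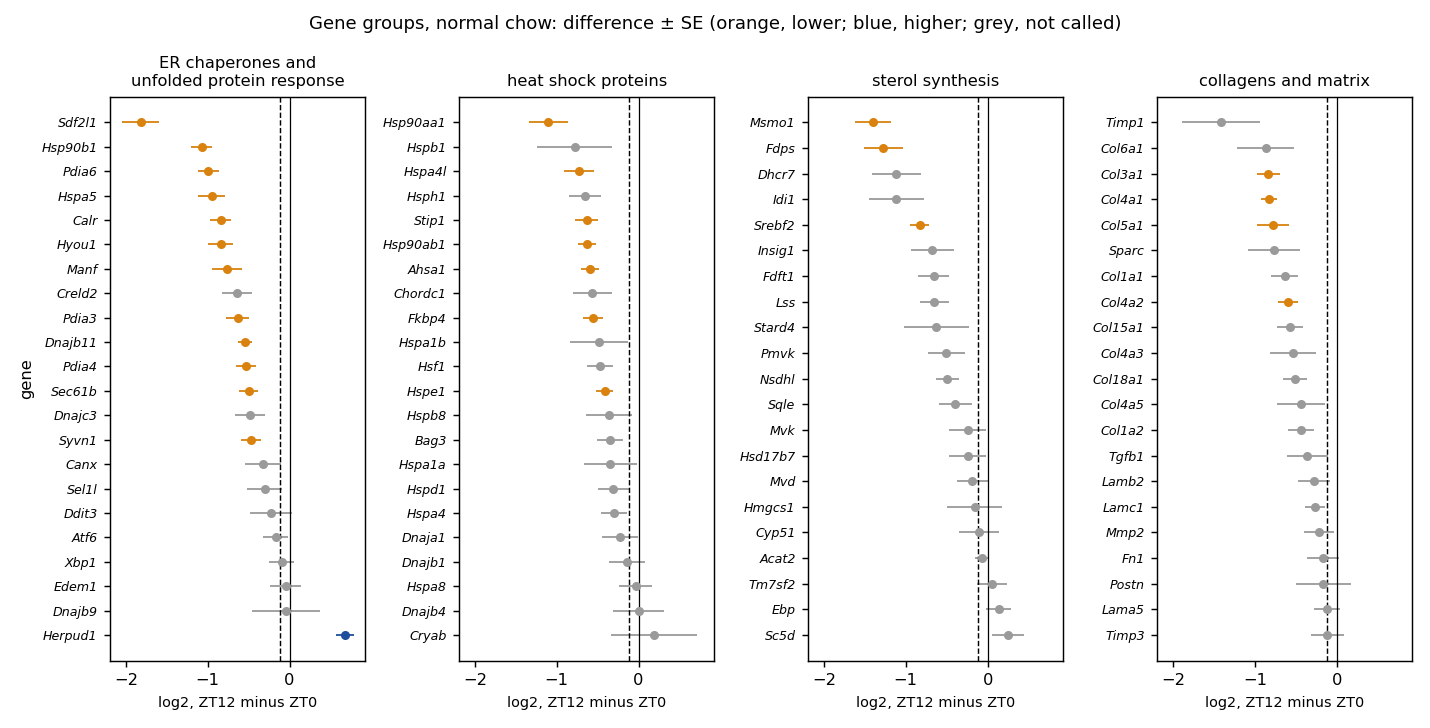
Difference between ZT12 and ZT0 (log2 ± SE) of members of 4 gene lists in normal chow kidney, with the dashed line at the median of all genes. Of the ER chaperone, heat shock and matrix members 12 of 22, 7 of 22 and 4 of 21 were lower (orange), the sterol panel shows 21 of 25 members with Fdps, Msmo1 and Srebf2 lower, and Herpud1 was the 1 higher member drawn (blue).

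In lists of metabolic genes few members passed in number, beside 3.2% of all genes tested. The shares called were 9.4% of glucose, 5.3% of fatty acid oxidation and 16.7% of fatty acid synthesis genes. The second lies near that background and is no result about the list. In glucose handling, 1 of 32 rose and 2 fell. Slc2a5, the fructose transporter GLUT5 of the proximal tubule, measured 18.5, 17.1 and 13.4 FPKM at ZT0 and 33.1, 35.7 and 28.6 FPKM at ZT12 (0.98 ± 0.15 log2, adjusted p = 0.00265). G6pc, which releases glucose in the last step of gluconeogenesis, measured 276, 270 and 242 FPKM at ZT0 and 112, 123 and 147 FPKM at ZT12 (-1.05 ± 0.22 log2, adjusted p = 0.0156). The groups of G6pc were well separated, but the adjusted p exceeded 0.05 when any 1 of ZT0 replicates 1 and 4 and ZT12 replicates 2 and 3 was left out (highest 0.0582). The other fall was Slc16a1. Among 38 genes of fatty acid oxidation, Vnn1, a pantetheinase and PPARα target, rose (0.71 ± 0.14 log2, adjusted p = 0.0118) and Fabp1 fell. Of 24 fatty acid synthesis genes 1 rose, the phosphatidate phosphatase Lpin1, and 3 fell, the desaturases Scd2, Fads1 and Fads2. These 4 calls depended on single libraries: 2 rose and 1 fell without ZT0 replicate 5, 0 and 2 without ZT0 replicate 4 or ZT12 replicate 3, and 0 passed without ZT12 replicate 5. Scd2 stayed called only without ZT0 replicate 1 (adjusted p = 0.130 without ZT0 replicate 5), and Fads2 was lost without replicate 5 of either time. Lpin1 was lost without ZT0 replicate 1 or 4 or ZT12 replicate 3 or 5. Among 46 oxidative phosphorylation, 24 citric acid cycle and 42 cytosolic ribosomal protein genes 0 passed.

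Fabp1, a fatty acid binding protein of liver and proximal tubule, measured 54.6, 6.19 and 2.46 FPKM at ZT0 and 0.591, 0.797 and 0.195 FPKM at ZT12. The ZT0 kidneys all lay above the ZT12 kidneys but differed among themselves, and the highest was ZT0 replicate 1, the library with the most albumin. The difference was -3.37 ± 0.69 log2 (adjusted p = 0.0149), and -2.16 log2 without that library (adjusted p = 0.00884). It did not pass without ZT12 replicate 5 (adjusted p = 0.0774). Fgb, a liver fibrinogen chain, was 4.32, 4.65 and 1.34 FPKM at ZT0 and 0.420, 0.217 and 0.122 FPKM at ZT12 (-2.27 ± 0.41 log2, adjusted p = 0.00637), or -2.05 log2 without ZT0 replicate 1. Alb and Apoa1, the markers highest in ZT0 replicate 1, did not pass (adjusted p = 0.310 for both), and the part of liver RNA in the fall of Fabp1 and Fgb was not tested.

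Among transporters, 1 of 33 proximal tubule genes rose and 3 fell, and 1 of 42 genes of the loop, distal tubule and collecting duct rose, against 3.2% of all genes called. The second share, 2.38%, lies near that background and is no result about those segments. The rises were Slc22a4, a carrier of organic cations (0.54 ± 0.13 log2, adjusted p = 0.0300), and Aqp3, a water channel of the collecting duct (0.66 ± 0.15 log2, adjusted p = 0.0298). Aqp3 measured 73.2, 58.8 and 51.9 FPKM at ZT0 and 94.8, 95.4 and 97.7 FPKM at ZT12, so the ZT12 kidneys lay close together and above every ZT0 kidney. Neither Slc22a4 nor Aqp3 passed without ZT0 replicate 4, ZT0 replicate 5 or any ZT12 library (highest adjusted p = 0.130 and 0.119). The falls were Slc16a1, the amino acid transporter Slc7a8 (-0.82 ± 0.19 log2, adjusted p = 0.0251) and the sulfate transporter Slc26a1 (-0.48 ± 0.13 log2, adjusted p = 0.0492). Slc7a8 was lost without ZT0 replicate 1 or 4 or ZT12 replicate 3 or 5, and Slc26a1 stayed called only without ZT0 replicate 5 (highest adjusted p = 0.107 and 0.194). After median ratio rescaling 1 of these falls passed, that of Slc16a1, and Slc26a1 did not (-0.37 log2, limma adjusted p = 0.136). The vasopressin-regulated water channel Aqp2 measured 81.5, 69.1 and 57.7 FPKM at ZT0 and 104, 153 and 148 FPKM at ZT12 and did not pass (0.95 ± 0.38 log2, adjusted p = 0.196).

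Several of the largest single falls lay outside these lists or were their only large member. Ndrg1, a hypoxia-inducible gene, had the highest mean FPKM of the 15 largest falls and 15 largest rises, at 1373, 1376 and 918 FPKM at ZT0 and 322, 397 and 305 FPKM at ZT12 (-1.82 ± 0.15 log2, adjusted p = 5.53e-06). Its lowest ZT0 value was that of replicate 5, and without it the difference was -2.02 log2. Of 16 hypoxia genes 2 others fell, Vegfa (-0.62 ± 0.11 log2, adjusted p = 0.00786) and the collagen hydroxylase P4ha1 (-0.73 ± 0.13 log2, adjusted p = 0.00576), against 2.48% of all genes lower. The median of the list equalled that of all genes (-0.12 log2). Nt5e, the ectonucleotidase that forms adenosine, measured 22.6, 19.3 and 16.9 FPKM at ZT0 and 7.61, 5.73 and 5.47 FPKM at ZT12 (-1.57 ± 0.26 log2, adjusted p = 0.00362). Acmsd, which diverts tryptophan breakdown away from NAD synthesis, was 47.8, 66.5 and 32.8 FPKM at ZT0 and 23.9, 11.8 and 13.9 FPKM at ZT12 (-1.54 ± 0.36 log2, adjusted p = 0.0300). The groups of Acmsd were separate but wide, and its call was lost when any 1 of ZT0 replicates 1 and 4 and ZT12 replicates 3 and 5 was left out. The remaining large falls were Palm3 (-1.71 log2), Pnrc1 (-1.27 log2) and Npnt (-1.13 log2), the last an integrin ligand of basement membrane.

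The large rises outside the lists were smaller, from 0.77 to 1.24 log2. Coq10b, which binds coenzyme Q, was 7.49, 10.4 and 14.5 FPKM at ZT0 and 27.3, 23.1 and 25.5 FPKM at ZT12 (1.24 ± 0.26 log2, adjusted p = 0.0175). Susd3 measured 47.1, 40.9 and 55.3 FPKM at ZT0 and 74.5, 138 and 106 FPKM at ZT12 (1.11 ± 0.22 log2, adjusted p = 0.0115). Both were separate between groups, yet Coq10b was lost when any 1 of ZT0 replicates 1 and 4 and ZT12 replicates 2 and 5 was left out, and Susd3 when any 1 of ZT0 replicate 4 and ZT12 replicates 3 and 5 was. Tnfrsf21, the death receptor DR6, measured 34.6, 36.6 and 28.9 FPKM at ZT0 and 59.7, 65.5 and 64.5 FPKM at ZT12 (0.92 ± 0.14 log2, adjusted p = 0.00242). Igfbp4, a secreted binder of insulin-like growth factors, measured 437, 330 and 387 FPKM at ZT0 and 566, 725 and 682 FPKM at ZT12 (0.77 ± 0.12 log2, adjusted p = 0.00242). Tnfrsf21 and Igfbp4 stayed called without any 1 library. The vitamin transporter Slc5a6 (0.85 log2), the sphingosine kinase Sphk2 (0.83 log2), the glutathione transferase Gstt2 (0.99 log2), Gatsl3 (0.84 log2), Vwa1 (1.00 log2) and the transglutaminase Tgm1 (1.17 log2) completed the list of 15 rises together with Dbp, Usp2, Tef, Hlf and Slc2a5. Vwa1 and Tgm1 were lost without ZT0 replicate 4 or without ZT12 replicate 3 or 5.

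Other groups held few calls in number or none, beside 3.2% of all genes tested. The shares called were 9.4% of ribosome assembly, 18.8% of cell cycle and 6.25% of drug metabolising genes. They were 13.3% of glucocorticoid, 10% of Kruppel-like, 14.3% of immediate early, 4% of NRF2 and 11.8% of interferon genes. The drug metabolising and NRF2 shares lie nearest that background and are no result about those lists. Of 32 ribosome assembly genes 3 fell (Rrp12, Tcof1 and Noc2l), and 1 passed without ZT0 replicate 1 or ZT12 replicate 2 and 0 without ZT12 replicate 5. Of 16 cell cycle genes Ccnd1 and Wee1 rose and Cdkn1a, an inhibitor of cell division, fell; Ccnd1 measured 25.3, 28.4 and 29.3 FPKM at ZT0 and 46.2, 48.2 and 44.4 FPKM at ZT12 but was lost whichever library was left out (highest adjusted p = 0.114). Of 32 drug metabolising enzymes 2 rose, Cyp2e1 (0.51 log2) and Por (0.61 log2), and 0 passed without ZT0 replicate 4 or 5 or ZT12 replicate 3 or 5. Per1 rose and Cdkn1a fell among 15 glucocorticoid-responsive genes, Klf13 rose among 10 Kruppel-like factors, Ctgf rose and Myc fell among 14 immediate early genes, Srxn1 fell among 25 NRF2 targets, and Stat2 and Rsad2 passed as lower among 17 interferon genes. Of these genes Stat2 was lost whichever library was left out, and Rsad2 and Ctgf stayed called only without ZT12 replicate 2 (highest adjusted p = 0.171, 0.183 and 0.134). Without ZT0 replicate 5, and after median ratio rescaling, 0 interferon genes passed. Klf13, Myc, Srxn1 and Cdkn1a were each lost without 2 to 4 of the 6 libraries. Among 9 cold-inducible, 13 ATF4, 14 ammonia and acid-base, 17 arginine and creatine, 9 renin angiotensin and 6 MHC class II genes 0 passed. Of the genes called in the full set and not without ZT0 replicate 5, the largest differences were those of Gm10052 (-3.77 log2), Cdkn1a (-1.36 log2), Hist1h1c (-1.27 log2), Itga6 (-1.18 log2) and Ddc (-1.17 log2). Without that library they were -4.19, -1.08, -1.32, -1.17 and -1.30 log2. Gm10052, Hist1h1c and Ddc stayed called only without ZT12 replicate 2. Itga6 was also lost without ZT0 replicate 4 or ZT12 replicate 3, and Cdkn1a without ZT12 replicate 5. After median ratio rescaling Gm10052 and Ddc did not pass (limma adjusted p = 0.0567 and 0.0650), and Cdkn1a, Hist1h1c and Itga6 passed. Ddc makes dopamine in the proximal tubule and also serves the adrenal medulla; it stood at 44.4, 48.7 and 35.2 FPKM at ZT0, so the library with adrenal tissue was the lowest of the 3.

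The same times in kidneys of mice on the high-fat diet, which share no library with the comparison above, gave 966 calls (8.65%), 258 higher (2.31%) and 708 lower (6.34%). Of the 358 genes called under normal chow 351 had the same sign there (98.0%), 75 of 81 higher and 276 of 277 lower ones, against 74.0% of the genes not called. The 213 genes called in both diets with the same sign were 59.5% of the normal chow calls and 22.0% of the high-fat calls, and 0 were called with opposite sign. Median differences of the 277 lower genes were -0.65 log2 under normal chow and -0.42 log2 under the high-fat diet, and those of the 81 higher genes 0.74 and 0.51 log2. Because these genes were picked on the normal chow values, the gap between those medians is a description only. Leaving out 1 high-fat library gave 367 to 860 calls, fewest without ZT12 replicate 5.

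The difference between diets was tested directly, and 0 of 11174 genes passed (limma, smallest adjusted p = 0.770), with 445 at an unadjusted p under 0.05. Without normal chow ZT0 replicate 4 the apolipoprotein gene Apoc4 passed, a gene named after its values were seen. Dbp was 2.97 ± 0.948 FPKM at ZT0 and 29.3 ± 3.74 FPKM at ZT12 under the high-fat diet (SD, n = 3), a rise of 3.13 log2 against 4.53 log2 under normal chow (difference 1.401 ± 0.35 log2, adjusted p = 0.954). Arntl fell by 2.71 on the log2 scale against 3.60 (difference -0.89 ± 0.25 log2, adjusted p = 1.00). Ppard fell by 1.73 and Nfil3 by 0.85 on the log2 scale, and the latter did not pass under the high-fat diet (adjusted p = 0.130). Vnn1 was 36.03 ± 1.32 and 32.1 ± 4.52 FPKM at the 2 times under the high-fat diet, and 19.6 ± 3.48 and 32.0 ± 1.64 FPKM under normal chow (difference 0.88 ± 0.21 log2, adjusted p = 0.954). None of these differences between diets passed the threshold, which does not show that the diets act alike. ER chaperones were lower for 13 and higher for 1 of 22 members under the high-fat diet, heat shock genes lower for 8 of 22, sterol genes for 5 of 25 and matrix genes for 9 of 21, with medians of -0.49, -0.27, -0.15 and -0.47 log2 against -0.09 for all genes.

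**Figure D5:**
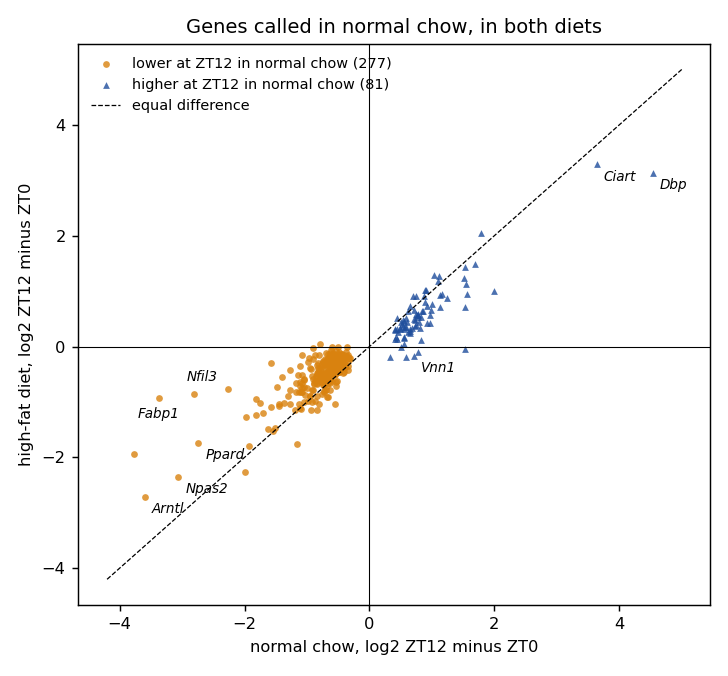
Difference between ZT12 and ZT0 (log2) under the high-fat diet (vertical) against that under normal chow (horizontal) for the 358 genes called under normal chow, with 3 libraries per time and diet. Of these 351 have the same sign in both diets, and 0 of 11174 genes passed the test of the difference between diets.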

How the data were processed

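Kidney RNA was sequenced in 36 libraries, with TRIzol extraction and TruSeq RNA library preparation per the labels' protocols. The authors deposited FPKM values, 1 table per diet with 24883 rows, made with CASAVA 1.8.2, Bowtie and Cuffnorm on mm10, per the submitters' processing notes; no version of Bowtie or Cuffnorm is given in the sources used here. That the unit is FPKM was inferred from Cuffnorm and the values. Count models were not applied to FPKM, and absolute depth is unknown. Relative depth came from 1278 rarely detected genes: 93.3% of their low values were whole multiples of the smallest within 0.05. Repeated gene symbols (280 symbols on 817 rows) were not tested. No pair of libraries held identical values.

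Genes with a mean of at least 1 FPKM over the 18 normal chow libraries were tested as log2(FPKM + 0.5) with limma 3.58.1 in R 4.3.3, with 6 group means, a mean-variance trend and a Benjamini-Hochberg threshold of 0.05; the fit leaves 12 residual degrees of freedom. The high-fat fit used its own 18 libraries, and the difference between diets all 36. The labels do not say that each library is a separate animal, so p-values measure the spread between these libraries. The fits were tested on simulated data. Members, 45 gene lists and alternatives were chosen with earlier results of these data known. Genes were named if they were measured members of the core clock list, the 15 largest rises and falls called with and without ZT0 replicate 5 at a mean of at least 5 FPKM, up to 4 members per list by p, and up to 5 calls lost without ZT0 replicate 5; called list members were named too. A few list members are not reported here but entered all fits and counts. Unnamed gene models were left out of the rises and falls. Alternatives were other pseudocounts (0.1 and 1), filters, scalings, library sets, array weights, a robust prior, a replicate block, a fat covariate, removal of the GC trend and leaving out each library. Leaving out the ZT4 libraries, and median ratio rescaling without ZT0 replicate 5, were added after the data were seen. Promoters are RefSeq on GRCm38.p6, the assembly of mm10, with coordinates counted from 1; 8540 of 11174 genes matched.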

Additional observations from a re-analysis of the deposited data

How the results depend on the processing

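Against 358 calls, pseudocounts of 0.1 or 1, no filter, or a robust prior gave totals of 334 to 361, the fat covariate 349, upper quartile rescaling 301 (180 lower) and a mean of at least 5 FPKM 254. Median ratio rescaling gave 258, 137 higher and 121 lower, and without ZT0 replicate 5 it gave 145, of which 73 were lower. The 6 libraries alone gave 61 (18 higher, 43 lower), all 36 libraries 988 (193, 795), array weights 1680 (322, 1358), leaving out the ZT4 libraries 907 (178, 729), leaving out the libraries with adrenal transcripts 567 (100, 467), and removal of the GC trend 683 (157, 526). The replicate block gave 84 (27, 57), and 145 (53, 92) with the GC trend removed. Leaving out each of the 6 libraries gave 115 to 270 calls, 24 to 87 higher and 91 to 183 lower. Array weights were fitted gene by gene. The cause of these shifts was not tested.

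Deviations of same-numbered libraries correlated between -0.60 and 0.35 over 26 pairs (median 0.046), and ZT0 and ZT12 share only replicate 5. Whether libraries of the same number belong together cannot be told from these correlations, which also carry other differences between libraries. Of 82 named calls 33 passed under the block. Under any alternative 0 changed sign, which leaving out 1 library could not bring about because their groups did not overlap. The high-fat comparison gave 966 calls, 582 with its 6 libraries alone, 428 with the block, 925 with median ratio rescaling and 367 to 860 without 1 library. The test of the difference between diets gave 0 calls with a pseudocount of 1, median ratio rescaling or the block, and 0 to 1 without 1 library.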

Other observations

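Several genes outside the named sets, chosen after their values were seen, passed in the same comparison. Avpr1a, the V1a vasopressin receptor, measured 4.52, 4.98 and 4.21 FPKM at ZT0 and 1.39, 0.899 and 1.17 FPKM at ZT12 (-1.63 ± 0.21 log2, limma adjusted p = 0.000610), and -1.49 log2 under the high-fat diet. Aqp8, a water and ammonia channel, measured 3.03, 2.63 and 2.42 FPKM at ZT0 and 0.898, 0.116 and 0.0869 FPKM at ZT12 (a 7.35-fold ratio of means, adjusted p = 0.00147). Upp2, a uridine phosphorylase, rose from 1.66 to 3.24 FPKM at ZT0 to 6.84 to 8.25 FPKM at ZT12 (1.54 ± 0.30 log2, adjusted p = 0.00993). Inmt, a methyltransferase, rose from 1151 to 1234 FPKM at ZT0 to 1493 to 1892 FPKM at ZT12 (0.54 ± 0.09 log2, adjusted p = 0.00350).

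Mtr, methionine synthase, measured 3.83, 3.39 and 2.69 FPKM at ZT0 and 1.42, 1.10 and 1.504 FPKM at ZT12 (-1.04 ± 0.20 log2, adjusted p = 0.0110). The tubulin genes Tubb2a and Tubb2b fell by 0.85 and 0.64 on the log2 scale (adjusted p = 0.00410 and 0.00276), and Serpinh1, the collagen chaperone HSP47, by 0.82 (adjusted p = 0.00362).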
